A study of Caenorhabditis elegans with 8 samples.

Results

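The abundant short RNA genes of the worm *Caenorhabditis elegans* are 108 of the 25509 genes in the deposited table. They were chosen by 2 values: a span of 50 to 250 bp on the ce10 genome, and a mean level of at least 200 FPKM (read fragments divided by the length of the feature and by the size of the library) over the 12 columns of total RNA. By the annotation, 59 were small nucleolar RNA genes (snoRNA, 61 to 226 bp), 23 were small nuclear RNA genes (snRNA, 121 to 187 bp) and 16 were other non-coding RNA genes (57 to 228 bp). The remaining genes were 4 short protein-coding genes, 3 tRNA pseudogenes, 2 tRNA genes and 1 rRNA gene. The high total RNA level is therefore given by the choice and is no result, and since total RNA is also the lower part of every ratio reported here, the choice favours ratios below 1.

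Worms were whole Bristol N2, the wild-type strain, synchronised with hypochlorite and grown in liquid culture. At each of 4 stages (mixed-stage embryos, larvae of stages L1-L2, larvae of stages L3-L4, and young adults) dsRIP RNA was sequenced beside total RNA. dsRIP RNA is the fraction pulled down from extracted RNA with the J2 antibody, which binds double-stranded RNA (dsRNA). Both larval groups were pools of intermolt and molting animals. The labels give 1 sample for each stage and kind of RNA, and the table holds 3 numbered columns for each, whose nature the labels do not state. Values below are the mean of those 3 columns ± SD, each sample counted once. The p-values and the SE of ratios rest on the spread between the 4 stage pairs. limma moderates that spread toward the spread of features of similar level, so neither measures the 4 pairs alone.

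snRNAs form the core of the spliceosome together with Sm or LSm proteins, and snoRNAs guide the chemical modification of ribosomal and other RNAs in the nucleolus, as box C/D or H/ACA particles. Both kinds fold on themselves into short helices and work bound to proteins. In worms many snoRNA genes lie in introns of protein-coding genes, while snRNA genes are mostly transcribed on their own. The J2 antibody recognises the shape of a dsRNA helix of sufficient length, not a sequence, and RNA was freed of protein before the pull-down in these samples.

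The library size implied by the steps between FPKM values was 348064 to 914442 reads per column (median 527607). By reads inferred in the same way, all 108 genes had at least 100 over the 24 columns. The labels of embryos and young adults were checked against stage markers: the embryonic endoderm gene end-1 stood at 24.04 FPKM in dsRIP and 19.7 in total RNA of embryos and at most 1.48 elsewhere, and the yolk protein gene vit-2 at 1304 and 1139 FPKM in young adults and at most 2.60 elsewhere. No marker used here tells L1-L2 from L3-L4 larvae, and the dsRIP sample of L3-L4 larvae is titled L4-L4, so its stage was taken from its stage label. rncs-1, a long hairpin RNA used as a dsRNA check, had 748, 795, 483 and 620 FPKM in dsRIP from embryos to young adults, against 206, 263, 278 and 473 in total RNA. The embryo dsRIP columns differed widely for the short genes. In embryo dsRIP their median was 951 FPKM in column 1, 234.9 in column 2 and 417 in column 3, against 909, 798 and 574 FPKM in embryo total RNA. Pairing embryo columns by number gave median log2 ratios of dsRIP to total RNA of -0.23, -1.73 and -0.48 for columns 1, 2 and 3. The embryo medians, and the stage comparisons that rest on them, are therefore also given without column 1 and without column 2.

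Setting dsRIP beside total RNA shows which genes took a larger or smaller share of the dsRIP library than of the total RNA library. FPKM is scaled to each library, so a ratio does not measure how much of an RNA was pulled down. Of the 108 short RNA genes, 94 had a ratio of dsRIP to total RNA below 1, with the lowest median among snRNA genes. The other 14 had a ratio above 1: 11 snoRNA genes, 2 other non-coding RNA genes and the rRNA gene. The 4 that limma called higher were snoRNA genes. Of the 108 genes, 51 were lower in dsRIP by limma with Benjamini-Hochberg adjustment over all 20628 features tested, against 2.12% of all those features, and 4 were higher, against 2.11%. The median log2 ratio of dsRIP to total RNA was -1.58 over the 108 genes and -0.08 over all features. With any 1 of the 4 stage pairs left out the adjusted calls went to 0. Those fits gave 62 to 85 of the 108 lower and 5 to 9 higher at an unadjusted p under 0.05, against 75 and 9 with all pairs. At that unadjusted threshold all features gave 13.7% lower and 9.37% higher with all pairs. With 1 pair left out they gave 9.12% to 11.4% lower and 6.8% to 7.96% higher. The number of short genes that were higher at this threshold was near the share of all features. Those include editing-enriched regions, stretches of genome with clustered A-to-I changes. Of the 19091 genes tested, without these regions, 967 were higher unadjusted. By adjusted calls 2.29% of these genes were lower and 0.754% higher, against 3.70% higher among the short genes.

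The same level rule applied to longer genes gave another picture. Of 462 genes of more than 250 bp with a total RNA mean of at least 200 FPKM, 29 were lower and 49 higher in dsRIP, with a median log2 ratio of 0.14. Of 1557 tested short genes under that level, 20 were lower and 9 higher, with a median of 0.06. When the short genes were chosen by a dsRIP mean of at least 200 FPKM instead, which favours ratios above 1, 76 genes remained, with a median of -1.21 and 61 of them below 0. When they were chosen on the total RNA columns numbered 1 and measured on columns 2 and 3, the 109 genes had a median of -1.59, and 98 were below 0. Columns of 1 sample may be technical repeats that share its level, so this split cannot remove the effect of the choice.

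The median ratio was below 0 at each stage, lowest in L1-L2 larvae and nearest to 0 in embryos. In embryos 52 of the 108 genes were at least 2-fold lower in dsRIP (9.8% of all features) and 15 at least 2-fold higher (12.0%). In L1-L2 larvae 82 were lower (12.4%) and 4 higher (12.3%), in L3-L4 larvae 70 lower (9.85%) and 6 higher (9.82%), and in young adults 76 lower (9.07%) and 5 higher (9.23%). Median log2 ratios by stage were -0.71, -2.11, -1.47 and -1.82. With 1 sample for each stage and kind of RNA, these counts carry no test. Without dsRIP column 1 the embryo median was -1.41, with 61 genes at least 2-fold lower and 10 higher. Without column 2 the embryo median was -0.48. For 37 of the 108 genes every dsRIP column lay below every total RNA column at all 4 stages, as it did for 0.475% of all features. For 1 gene, Y37E3.20, every dsRIP column lay above, as for 0.339%. The order of the genes by ratio was much alike between stages, with a Spearman correlation of 0.78 to 0.91 over the 108 genes, against 0.27 to 0.34 over all features. Without embryo dsRIP column 1 the correlations with embryos were 0.79 to 0.86, and without column 2 they were 0.76 to 0.82. That is a description only, since the genes share libraries and weakly covered features carry more counting noise.

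**Figure D1:**
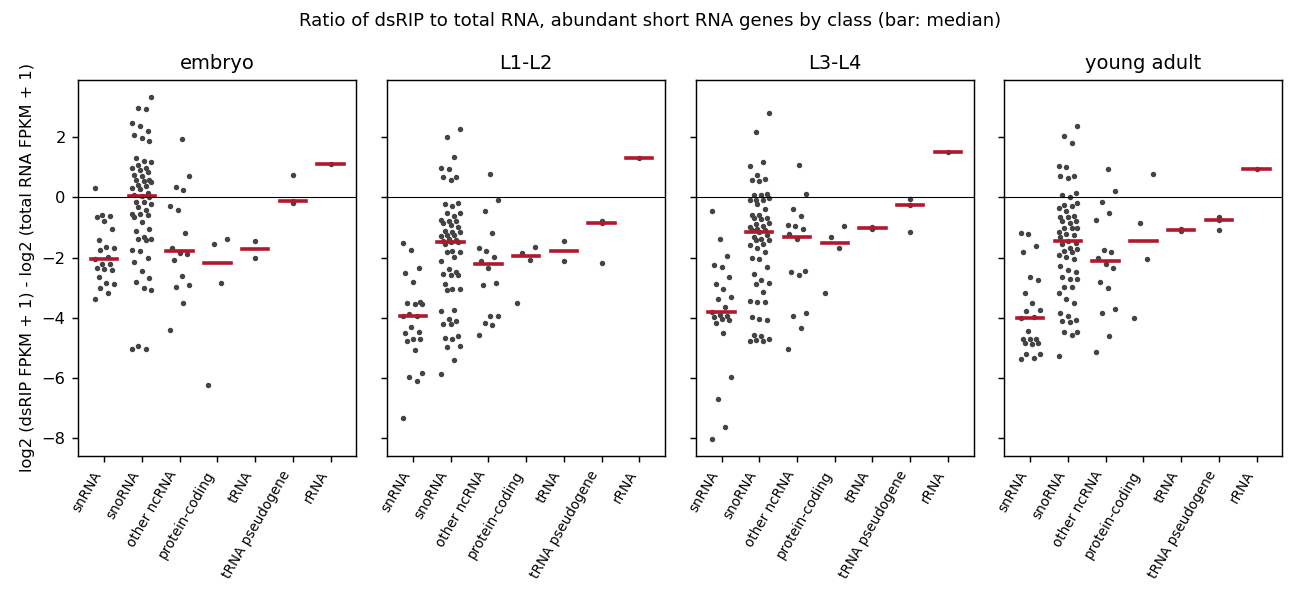
Log2 ratio of dsRIP to total RNA (FPKM + 1) of the 108 short RNA genes at each stage, 1 point per gene, grouped by annotated class; red bars mark class medians and the line marks a ratio of 1. The snRNA median is -2.03 in embryos and between -4.03 and -3.81 at the later stages, and the snoRNAs spread on both sides of the line at each stage.

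Of 23 snRNA genes, 17 were lower in dsRIP and 0 higher by limma (22 and 0 at an unadjusted p under 0.05). All 23 ratios were below 0 over the 4 stages, and their median was -3.65 (range -5.63 to -1.08). From embryos to young adults the median ratio was -2.03, -3.95, -3.81 and -4.03. Without dsRIP column 1 the embryo median was -2.91, and without column 2 it was -1.53. For 15 of the 23, dsRIP and total RNA columns did not overlap at any stage.

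The most abundant were the U1 snRNA genes sup-39 and sup-6, known for suppressor mutations that alter the choice of splice sites. sup-39 (C15F1.9, ce10 chromosome II, 6968352-6968516, minus strand) had 3166 ± 2539, 1443 ± 475, 2133 ± 660.3 and 663 ± 374 FPKM in dsRIP from embryos to young adults, in the order of the stages given above. Total RNA of the same stages held 14769 ± 2378, 38310.2 ± 16427, 33882 ± 8411 and 24606 ± 5791 FPKM. All dsRIP columns lay below all total RNA columns at each stage, and the log2 ratio was -4.04 ± 0.53 (moderated SE over 4 stages, limma adjusted p = 0.0297). sup-6 (F58G1.10, chromosome II, 12944734-12944898, minus strand) had 3852 ± 3102, 2389 ± 1066, 2569 ± 1152 and 843 ± 292 FPKM in dsRIP, against 12867 ± 1833, 35289.6 ± 16502, 27066 ± 4523 and 21939.5 ± 9633 in total RNA. Its ratio was -3.43 ± 0.50 (adjusted p = 0.0374), again without overlap at any stage. F08H9.10, the third most abundant snRNA gene and of the same 165 bp length, gave -3.43 ± 0.55 (adjusted p = 0.0431). snRNA genes form families of near-identical copies, and how reads that match several copies were assigned is not stated, so differences between genes of 1 family are uncertain.

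**Figure D2:**
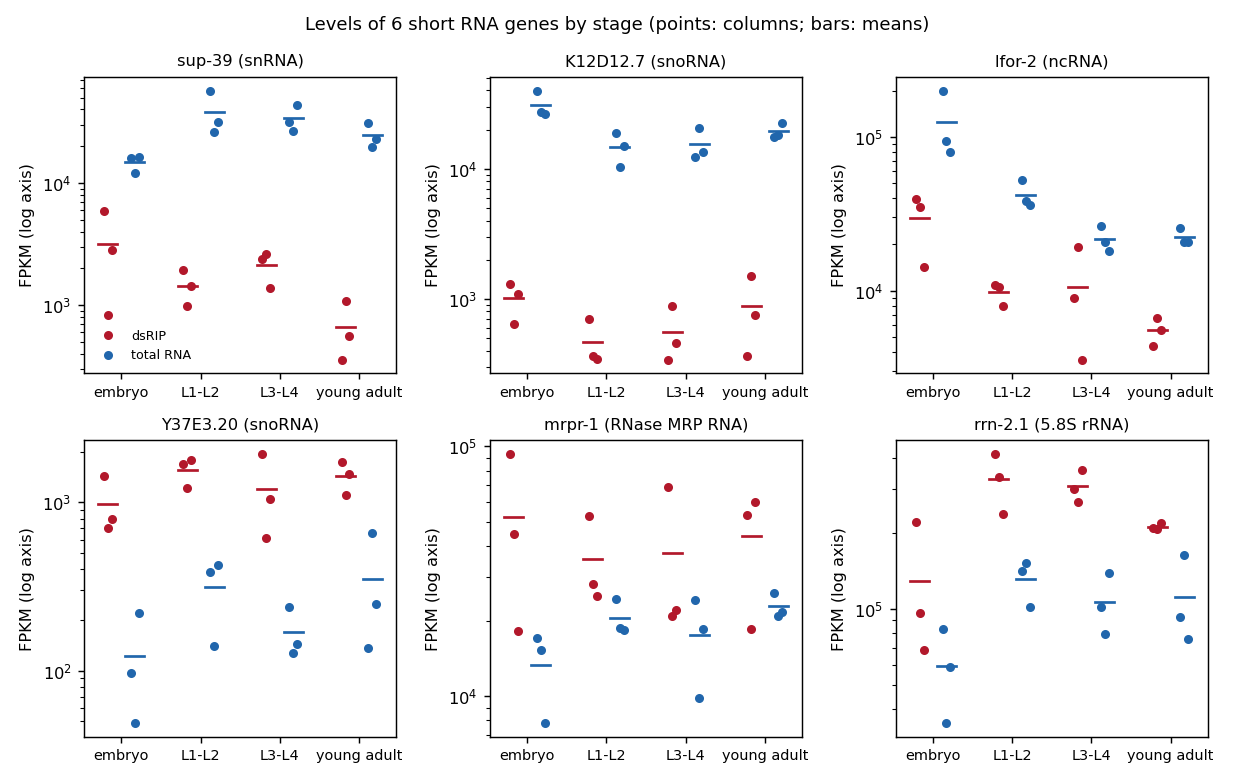
FPKM (log axis) of 6 short RNA genes by stage, with dsRIP in red to the left of total RNA in blue; points are the 3 columns and bars their means. sup-39 and K12D12.7 lie lower in dsRIP without overlap at any stage, Y37E3.20 lies higher without overlap, and columns of mrpr-1 overlap between dsRIP and total RNA in L3-L4 larvae and young adults.

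By length the snRNA genes fell into 4 groups with different medians. The 7 genes of 121 to 126 bp had a median ratio of -4.47 (-5.63 to -2.54), with 6 lower by limma. The 7 genes of 163 to 170 bp, which include sup-39 and sup-6, had a median of -3.43 (-4.04 to -2.25) with 6 lower. The 6 genes of 185 to 187 bp had a median of -3.54 (-4.34 to -1.08) with 4 lower. The 3 genes of 142 to 144 bp had a median of -1.51 (-1.74 to -1.24) with 1 lower, so their 3 ratios lay above those of the other 20 genes, with Y54G9A.8 as the exception. These groups were drawn after the lengths were seen, and no test was made between them.

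The lowest ratio of the 108 genes was that of C53D6.12 (chromosome IV, 9001282-9001407, minus strand), a 126-bp gene. It had 223 ± 179, 18.7 ± 32.4, 8.49 ± 7.35 and 53.0 ± 47.3 FPKM in dsRIP, against 2307 ± 696, 1379.8 ± 879, 1905 ± 1432 and 2223 ± 1454 in total RNA. That is 46 reads in all in dsRIP and 2168 in total RNA, with a ratio of -5.63 ± 0.69 (limma adjusted p = 0.0268). F32B5.9 gave -4.50 ± 0.40 (adjusted p = 0.0161) and its span overlaps an editing-enriched region, a stretch of genome with clustered A-to-I changes. ZK897.4 and C53B4.9, both 122 bp, had 0 reads in dsRIP of L1-L2 and L3-L4 larvae. In those stages ZK897.4 had 46 and 73 reads in total RNA and C53B4.9 had 6 and 29, so their fitted ratios of -5.36 (adjusted p = 0.0666) and -4.40 (adjusted p = 0.0365) depend on the value added before taking logs. At the other end Y54G9A.8, of 187 bp, had 922 ± 839, 25.6 ± 13.4, 129 ± 75.8 and 297 ± 52.6 FPKM in dsRIP, against 733 ± 113, 136 ± 70.0, 177 ± 48.9 and 1048 ± 250.2 in total RNA. Its columns overlapped in embryos and L3-L4 larvae, and its ratio of -1.08 did not pass the test (adjusted p = 0.269).

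**Figure D3:**
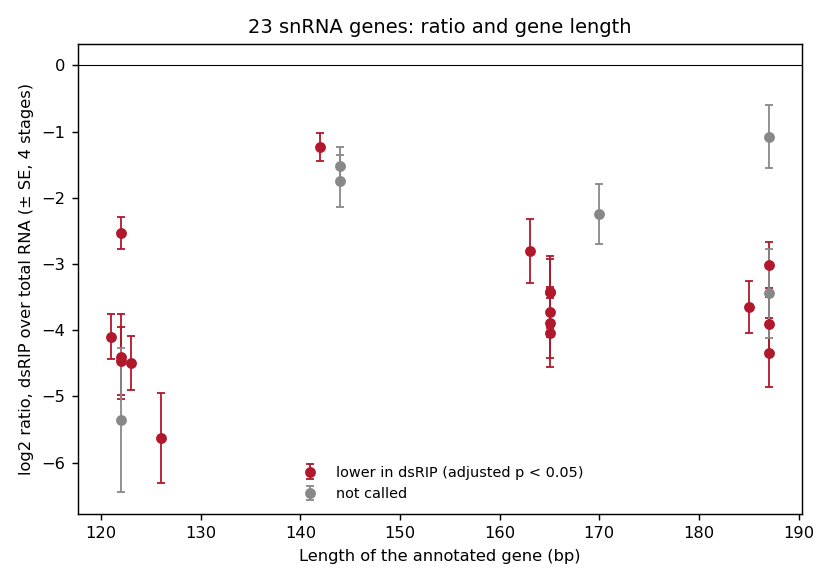
Log2 ratio of dsRIP to total RNA (mean of 4 stages ± moderated SE) of the 23 snRNA genes against annotated gene length in bp, red where limma called the gene lower and grey where it did not. The 3 genes of 142 to 144 bp lie between -1.74 and -1.24, and the 7 genes of 121 to 126 bp between -5.63 and -2.54.

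The snoRNA genes were split. Of 59, 20 were lower in dsRIP and 4 higher by limma, and the median ratio was -0.94 (-4.81 to 2.54). The stage medians were 0.05, -1.49, -1.14 and -1.45 from embryos to young adults. The embryo value was -0.60 without dsRIP column 1 and 0.25 without column 2. Pairing embryo columns by number gave 0.64, -1.43 and -0.08 for columns 1, 2 and 3, so in embryos the direction of the snoRNA median changed with the column used. The 8 snoRNA genes of up to 100 bp had a median of -2.31 with 6 lower and 1 higher, the 38 genes of over 100 and up to 150 bp had -0.92 with 10 lower and 3 higher, and the 13 longer genes had -0.87 with 4 lower and 0 higher. The shortest group includes K12D12.6, K12D12.7 and K12D12.8, neighbours at 1 locus that were all called lower and whose reads could not be separated.

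The lowest adjusted p-values of the 108 genes belonged to a cluster of 3 snoRNA genes inside the span of top-2, which encodes a DNA topoisomerase. K12D12.7 (chromosome II, 11876493-11876553, plus strand) is the most abundant snoRNA gene in total RNA. It had 1007 ± 331, 467 ± 199, 556 ± 282 and 876 ± 583 FPKM in dsRIP, against 31086 ± 7649, 14727 ± 4299, 15488 ± 4568 and 19525 ± 2713 in total RNA. Its stage ratios all lay between -4.98 and -4.48, for a mean of -4.80 ± 0.14 (adjusted p = 0.00367). Its neighbours K12D12.6, 95 bp, and K12D12.8, 72 bp, gave -4.81 ± 0.13 and -4.59 ± 0.16. The 3 genes lie next to each other, and reads shared between them could not be separated. F25H2.14, a 226-bp snoRNA gene inside the span of tct-1, gave -4.26 ± 0.33 (adjusted p = 0.0136), from 752 reads in dsRIP and 24800 in total RNA.

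snoRNA genes that share a host gene could share a ratio or differ. Y43F4B.11 and Y43F4B.12, both in the span of the kinesin gene klp-19, gave -3.49 and -3.50, and B0412.6 and B0412.7, both in the span of the ribosomal protein gene rps-29, gave -3.41 and -3.39. By contrast C06A1.8 and C06A1.9 in the span of cdc-48.1, an ATPase gene, gave -3.23 and -1.39, and F17C11.14 and F17C11.15 in the span of the elongation factor gene eef-1G gave -2.91 and -0.67, the last not called (adjusted p = 0.137). Over the 13 short genes inside ribosomal protein gene spans, 4 were lower and 1 higher, with a median of -0.62. They reached from -3.73 for F28C6.11 in rpl-26, on only 9 dsRIP and 250 total RNA reads, to 2.38 for F54E7.11 in rps-12. C50C3.13, in the span of the splicing factor gene prp-8, had the steadiest total RNA level of the 108 genes over the stages. It held 1469.7 ± 291, 1566 ± 573, 1387 ± 304 and 1380.2 ± 377 FPKM there, with 228 ± 159.6, 36.1 ± 31.3, 81.6 ± 79.9 and 211 ± 152 in dsRIP, and a ratio of -3.71 ± 0.50 (adjusted p = 0.0317). The 2 most abundant snoRNA genes after K12D12.7 were not called: T24H7.6 gave -2.11 (adjusted p = 0.0674) and Y38F2AR.14 gave -1.25 (adjusted p = 0.137).

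The 4 genes that rose in dsRIP by limma were all snoRNA genes. Y37E3.20 (chromosome I, 2085040-2085158, plus strand, inside the span of pcyt-2.1) had 980.0 ± 404, 1558 ± 301, 1199.8 ± 676 and 1438 ± 319.9 FPKM in dsRIP. Total RNA held 122 ± 88.7, 316 ± 154, 169 ± 60.6 and 348 ± 276 FPKM. No column overlapped at any stage, and the log2 ratio was 2.54 ± 0.18 (limma adjusted p = 0.0113). The 2 other members named for the same clone, Y37E3.21 and Y37E3.22, lie next to each other on the minus strand of the same chromosome and had ratios of -1.58 (adjusted p = 0.0425) and -0.999 (adjusted p = 0.142).

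F54E7.11 (chromosome III, 5679700-5679830, plus strand) lies in the span of rps-12, a ribosomal protein gene. It had 704 ± 692, 1259 ± 583, 1304 ± 1166 and 1564 ± 692 FPKM in dsRIP, against 90.6 ± 6.23, 309.8 ± 128, 289 ± 178 and 296 ± 128 in total RNA. Its ratio was 2.38 ± 0.17 (adjusted p = 0.0112), and columns did not overlap at 3 of the 4 stages. F54E7.10, a snoRNA gene in the same host, gave 1.07 and was not called (adjusted p = 0.155). F11A10.9, in the span of rbm-34, gave 1.48 ± 0.23 (adjusted p = 0.0415), and F30H5.4, which overlaps no other gene, gave 0.90 ± 0.12 (adjusted p = 0.0297). Columns did not overlap at 3 of the 4 stages for F11A10.9, but at only 1 for F30H5.4. Among the 6 highest ratios, Y43F8C.22 (1.42, adjusted p = 0.185) and Y74C9A.6 (1.28, adjusted p = 0.108) did not pass. Their embryo ratios of 3.35 and 2.50 stood above those of the other 3 stages, which lay between 0.59 and 1.06. Without dsRIP column 1 they were 2.22 and 1.31.

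Of the 16 other non-coding RNA genes, 9 were lower and 0 higher by limma (12 and 1 at an unadjusted p under 0.05), with a median ratio of -2.08. Of these 16, 11 lie opposite an snRNA or snoRNA gene and are taken up with their partners further on. The most abundant were lfor-2 and lfor-1, which lie near each other on chromosome II. lfor-2 (C38C6.7, 14641472-14641528, minus strand), the shortest of the 108 genes, had 29556 ± 13459, 9810.3 ± 1595, 10543 ± 7945 and 5519 ± 1134 FPKM in dsRIP, against 124944 ± 65582, 42228 ± 8923, 21714 ± 4145 and 22307 ± 2726 in total RNA. Its ratio was -1.81 ± 0.35 (adjusted p = 0.0612). lfor-1 (C38C6.8, 14635778-14636005, minus strand) had 11961 ± 4292, 3776 ± 571, 3569 ± 2598 and 2314 ± 478 FPKM in dsRIP, against 38680.2 ± 21857, 15067 ± 3289, 6709.5 ± 1262 and 7728 ± 1161 in total RNA, and fell by 1.58 ± 0.24 on the log2 scale (adjusted p = 0.0403). Both were highest in embryos, where the 3 total RNA columns of each spread widely. F52D4.1 fell by 3.42 (adjusted p = 0.0498).

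The ribonucleoprotein RNA of RNase MRP, mrpr-1 (E04F6.16, chromosome II, 7200192-7200377, plus strand), which takes part in rRNA processing, had a ratio above 0 that did not pass the test. It had 51993 ± 38071, 35297 ± 15054, 37388 ± 27453 and 43959 ± 22200.4 FPKM in dsRIP, against 13386 ± 4932, 20535 ± 3372, 17555 ± 7277 and 22885 ± 2630.3 in total RNA. Columns did not overlap in embryos and L1-L2 larvae and did in the later stages, and the ratio was 1.19 ± 0.39 (adjusted p = 0.164). The related RNase P RNA gene rpr-1, which is 3 bp too long for the span rule at 253 bp, averaged 24872 FPKM in dsRIP and 96729 in total RNA over the 12 columns of each.

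The single rRNA gene, rrn-2.1 for 5.8S rRNA (F31C3.11, chromosome I, 15064290-15064442, plus strand), was the most abundant of the 108. It had 129013 ± 82176, 328759 ± 87982, 308261 ± 45036 and 212690.0 ± 7049.6 FPKM in dsRIP, against 59124 ± 24090.0, 132072 ± 26774, 106920.0 ± 30115 and 111085 ± 46708 in total RNA. Columns did not overlap at 3 of the 4 stages, but the limma ratio of 1.23 ± 1.02 did not pass (adjusted p = 0.533). The 4 stage ratios lay between 0.94 and 1.53, closer together than that SE, which limma moderates by a trend with level. Without dsRIP column 1 the embryo ratio was 0.48. Without the trend the adjusted p was 0.0629. rRNA genes are repeated in the genome, so the level of this single entry is uncertain.

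The 2 tRNA genes were both lower. F10C1.t1 had 215 ± 86.9, 700.2 ± 135, 129 ± 15.1 and 276 ± 135 FPKM in dsRIP, against 588 ± 372, 1905 ± 881, 256 ± 36.8 and 595 ± 352 in total RNA, and fell by 1.24 ± 0.11 (adjusted p = 0.0149). W09G10.t3 fell by 1.55 (adjusted p = 0.0376). Of the 3 tRNA pseudogenes limma called 0 (2 lower at an unadjusted p under 0.05), with ratios of -0.52 for ZK380.t2 (adjusted p = 0.114), -0.68 for D1005.t1 (adjusted p = 0.107) and -0.64 for D1046.t1 (adjusted p = 0.491). tRNA genes are multicopy, and the table lists 260 of them, of which these 2 passed the level rule.

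Of the 4 short protein-coding genes, 3 were lower. F23A7.8 (chromosome X, 16213301-16213527, plus strand) had 1228 ± 345, 152 ± 94.4, 337 ± 59.7 and 911 ± 364 FPKM in dsRIP, against 8797 ± 1819, 1737 ± 632, 3061 ± 935 and 14624 ± 3933 in total RNA. Its ratio of -3.38 ± 0.21 (adjusted p = 0.0104) was close to that of the U1 snRNA gene sup-6, and columns did not overlap at any stage. B0205.12 fell by 1.74 ± 0.12 (adjusted p = 0.0111) and ostf-4 by 1.45 ± 0.20 (adjusted p = 0.0338). C05G5.7 had 0, 233 ± 215, 159 ± 13.2 and 13.7 ± 23.8 FPKM in dsRIP, against 75.4 ± 6.95, 723 ± 629.6, 311 ± 132 and 7.47 ± 12.9 in total RNA, and its ratio of -2.01 was not called (adjusted p = 0.361). Its embryo value of 0 in dsRIP stands against 17 reads in total RNA.

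Positions in the genome overlapped often: 81 of the 108 genes overlap the span of another gene, and 22 of them form 11 pairs with each other. In every pair an snRNA or snoRNA gene lies opposite a non-coding RNA entry on the other strand. The entry opposite sup-39, C15F1.14, covers all of its 165 bp and had 101 reads in dsRIP and 2464 in total RNA, against 1714 and 39425 for sup-39. That is 5.89% of the sup-39 reads in dsRIP and 6.25% in total RNA. The ratios of the pair were -3.96 and -4.04. In total RNA the entry held 2.67% to 11.7% of its partner's reads in 10 of the 11 pairs and 65.3% for C10C6.11 opposite C10C6.8. Log2 ratios within a pair differed by at most 0.55 in 10 pairs, and by 1.80 in the pair of F25H2.16 (-2.46, adjusted p = 0.0130) and F25H2.14 (-4.26), whose spans share only 31 bp. The libraries were stranded per the labels, but the sources used here do not say if counting took strand into account. C15F1.14 covers all of sup-39 yet held far fewer reads, so the reads of sup-39 were not all counted for both. How reads of an overlap were assigned to the 2 strands is not stated. The 11 entries opposite a partner hold 7 of the 9 calls of lower level among the other non-coding genes, and their independence from their partners was not tested. Leaving out all genes that overlap another gene span left 27, of which 11 were lower and 1 higher, with a median of -1.30.

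**Figure D4:**
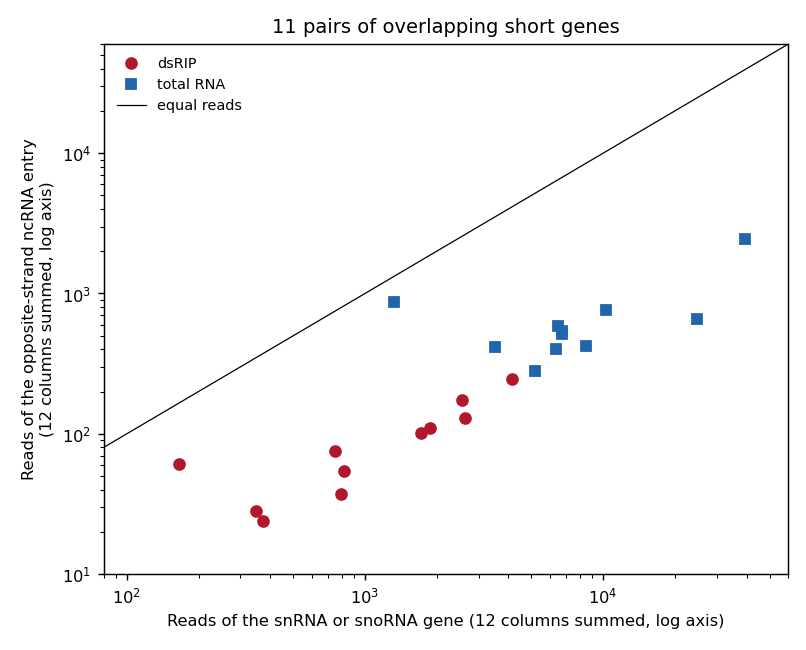
Reads of the non-coding entry against reads of the snRNA or snoRNA gene on the opposite strand for the 11 overlapping pairs, each summed over 12 columns (log axes), with dsRIP as red circles, total RNA as blue squares and a line at equal reads. The points run below the line of equal reads, with the pair of C10C6.8 and C10C6.11 nearest to it.

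As a share of all reads, taken as the implied library size, the 108 genes had a lower mean in dsRIP than in total RNA at each stage. The gap was wider without the 5.8S rRNA gene. They held 5.33% ± 3.19, 7.12% ± 1.83, 7.29% ± 0.975 and 5.89% ± 0.679 of reads in dsRIP from embryos to young adults. Total RNA gave 6.50% ± 1.89, 8.12% ± 1.94, 7.56% ± 0.509 and 8.87% ± 0.808. dsRIP and total RNA columns overlapped at each stage but young adults. Without rrn-2.1 the share was 3.36% ± 1.93, 2.09% ± 0.581, 2.57% ± 1.17 and 2.63% ± 0.596 in dsRIP, against 5.59% ± 1.63, 6.10% ± 1.90, 5.92% ± 0.356 and 7.17% ± 0.924 in total RNA. Those columns overlapped only in embryos, through dsRIP column 1. The ratio of the shares, averaged over the 4 stages, was 0.831 with rrn-2.1 and 0.436 without it. The 23 snRNA genes held 0.418%, 0.115%, 0.147% and 0.117% of dsRIP reads, against 1.30%, 1.76%, 1.63% and 1.72% of total RNA reads. rrn-2.1 alone held 1.97%, 5.03%, 4.72% and 3.25% in dsRIP, against 0.905%, 2.02%, 1.64% and 1.70% in total RNA.

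**Figure D5:**
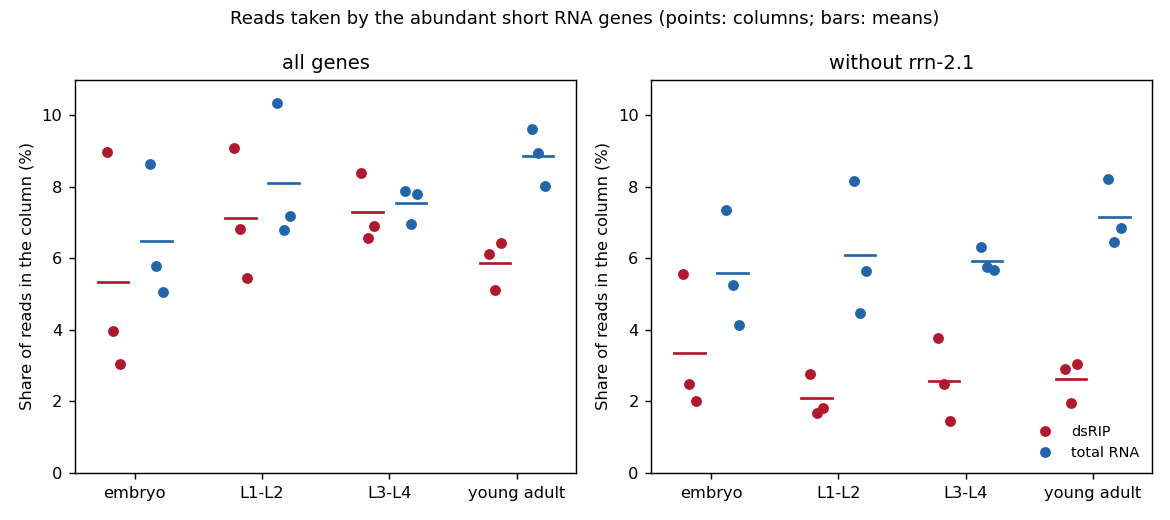
Share of the reads of each column (percent) in the 108 short RNA genes, left, and without the 5.8S rRNA gene rrn-2.1, right, by stage, with dsRIP in red to the left of total RNA in blue; points are columns and bars their means. Without rrn-2.1, all dsRIP columns of larvae and young adults lie below all total RNA columns of the same stage.

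Levels also moved with stage. The median of the 108 genes was 550.4, 249, 279 and 368 FPKM in dsRIP from embryos to young adults, and 767, 1505, 1543 and 1721 FPKM in total RNA. In dsRIP embryos had the highest level for 55 genes and the lowest for 24, and L1-L2 larvae had the lowest for 51. Without embryo dsRIP column 1 the embryo median was 341 FPKM, embryos were highest for 40 genes and lowest for 44, and L1-L2 larvae lowest for 36, so that order rested in part on this column. Without column 2 the embryo median was 676 FPKM, embryos were highest for 61 genes and lowest for 19, and L1-L2 larvae lowest for 55. In total RNA embryos had the lowest level for 55 genes and young adults the highest for 45. Between L1-L2 larvae and embryos the median log2 difference was -0.81 in dsRIP and 0.84 in total RNA, while it was 0 over all features in both. Without embryo dsRIP column 1 the dsRIP difference was -0.14, and without column 2 it was -1.08. In total RNA 52 of the 108 genes were at least 2-fold higher in L1-L2 larvae than in embryos, against 28.1% of all features, and 21 at least 2-fold lower, against 25.9%. The total RNA columns also differed. Their medians over the 108 genes were 2056, 828 and 1415 FPKM in L1-L2 larvae and 909, 798 and 574 in embryos. Column 2 of L1-L2 larvae thus lay within the embryo range, and the total RNA differences were not repeated without single columns. In whole animals fewer cells of a type and less RNA per cell cannot be told apart, and with 1 sample for each stage none of these differences was tested.

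A few genes had stage patterns of their own in total RNA. C05G5.7 was highest in L1-L2 larvae and lowest in young adults, a ratio of 96.8 that rests on 2 young adult reads, both in 1 column, and becomes 48.8 without L1-L2 column 3. C10C6.11 ranged 29.1-fold between stages, and 15.3-fold without L3-L4 column 2. T27E4.15 ranged 22.2-fold, and 8.70-fold without embryo column 1. C53B4.9 ranged 19.8-fold, and 60.7-fold without L1-L2 column 1. For T27E4.15 the embryo level of 812 ± 867 FPKM rests on columns that spread more than their mean, against 106 ± 69.0 in dsRIP, and its ratio over the stages was -2.34 ± 0.31 (adjusted p = 0.0300). C53B4.9 was lowest in L1-L2 larvae, where it had 6 reads, and highest in embryos, at 379 FPKM against 358 in young adults. Without embryo column 1 its embryo mean was 295 FPKM, below that of young adults. Among the snRNA genes, sup-39 and sup-6 were lowest in total RNA of embryos and highest in that of L1-L2 larvae, and F08H9.10 varied only 1.3-fold between stages. The L1-L2 columns were 57038, 26334 and 31559 FPKM for sup-39 and 53359, 21016 and 31494 for sup-6. Without column 1 each L1-L2 mean falls below the L3-L4 mean, 33882 for sup-39 and 27066 for sup-6, so the L1-L2 peak rested on that column.

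Transcripts of the proteins that carry these RNAs were read from lists in the same fit. Of 15 Sm and LSm genes, whose rings bind snRNAs, 4 were lower in dsRIP and 1 was higher, against 2.12% and 2.11% of all features. At an unadjusted p under 0.05, 5 were lower and 4 higher, against 13.7% and 9.37% of all features. Their median ratio was -0.14. lsm-3 averaged 34.1 FPKM in dsRIP and 67.9 in total RNA (-0.99, limma adjusted p = 0.0147), and lsm-8, of the ring that binds U6 snRNA, averaged 39.4 FPKM in dsRIP and 70.3 in total RNA (-0.85, adjusted p = 0.0152). snr-2 averaged 200.03 FPKM in dsRIP and 278 in total RNA (-0.44, adjusted p = 0.0449), and snr-5 averaged 143 FPKM in dsRIP and 199.7 in total RNA (-0.45, adjusted p = 0.0494). lsm-4 averaged 178 FPKM in dsRIP and 100.8 in total RNA (0.76, adjusted p = 0.0181). Of 14 tested genes of U snRNPs and splicing limma called 0 (2 lower at an unadjusted p under 0.05, near the 13.7% of all features), and the 2 most abundant, eftu-2 and prp-8, gave -0.09 and -0.18. It also called 0 of 4 box C/D protein genes and 0 of 4 H/ACA protein genes (1 higher in each at an unadjusted p under 0.05), with -0.10 for M28.5, 0.07 for fib-1, which encodes the methylase fibrillarin, -0.03 for nola-3 and -0.01 for K01G5.5. It called 0 of 2 genes of the Ro and La proteins (0 at an unadjusted p under 0.05), with 0.09 for rop-1 and -0.09 for C44E4.4. The list medians lay between -0.19 and 0.03, against -3.65 for the snRNA genes and -0.94 for the snoRNA genes.

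The level threshold cut through a continuous range. Just inside it were T02E1.9 (208 FPKM in total RNA over 12 columns), ZK897.4 (210.1) and C53B4.9 (215), and just outside were Y69A2AR.44 (195), F32E10.10 (191) and T27A3.9 (183). In dsRIP these averaged 99.4, 15.3 and 19.6 FPKM inside the threshold and 15.7, 73.3 and 65.1 FPKM outside it. T02E1.9, a snoRNA gene on 38 dsRIP and 130 total RNA reads, fell by 1.13 (adjusted p = 0.0415). A threshold of 100 FPKM gave 130 genes with a median ratio of -1.53, and 500 FPKM gave 79 genes with -1.84.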

How the data were processed

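RNA of whole worms was measured in 8 samples, dsRIP and total RNA at 4 stages. Per the submitters' processing notes, Novoalign, bedtools 2.19.0, SAMtools 0.1.19 and the ce10 genome were used; strand handling in counting and the annotation are not given in the sources used here. Per the labels' protocols, RNA was fragmented before stranded libraries were made. The deposited table holds FPKM computed by the authors for 27050 features, 25509 genes and 1541 editing-enriched regions, in 24 columns. For each sample the mean of its 3 numbered columns was used. The deposited list of editing-enriched regions, a product of the authors' calling on ce10, carries a score per region whose meaning is not stated; only its positions were used. Starts in the table count from 0, since end minus start equals the annotated length for 3243 of 3287 short genes; positions are printed counting from 1. Classes, symbols and strand were looked up by sequence name in an annotation of WBcel235, where 108 of 108 genes matched.

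Features with at least 1 FPKM in at least 2 of 8 samples were tested with limma 3.58.1 in R 4.3.3 (lmFit, then eBayes with its trend option). Values were log2(FPKM + 1), stage was a block, and p-values were adjusted by Benjamini-Hochberg over 20628 features at 0.05; all 108 genes passed. Ratios on this scale understate changes of low features. Read numbers come from the step between FPKM values of the editing-enriched regions, whose length is known: 100% of those values were whole reads within 0.05. For 2 of the 108 genes (B0205.12 and ostf-4) the counted length is shorter than the span. Counting error is covered by no test here. The fit was tested on simulated data.

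The genes and lists were chosen with earlier results of these data known. The text names the 3 most abundant genes of each class, the 6 lowest and 6 highest ratios, the 4 largest and 2 smallest stage ratios and the 3 genes at each side of the level threshold; other genes named (length groups, neighbours in a host gene, opposite-strand pairs, remaining calls) were chosen after their values were seen. The alternatives were other pseudocounts, filters, scalings and level thresholds, no block, no trend, 1 stage pair left out, single columns, and genes chosen by dsRIP or by other columns. Values without single columns were added after seeing the data. Sequence features were not analysed here.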

Additional observations from a re-analysis of the deposited data

How the results depend on the processing

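The median log2 ratio of the 108 genes stayed between -1.79 and -1.44 in all fits, and no called gene changed sign in any of them. Of 55 calls, all were kept with a pseudocount of 5, a filter of 10 FPKM or equal medians, 49 with a pseudocount of 0.5, 41 under quantile normalisation, 40 without the filter, 39 in young adults without column 3 and 53 without embryo dsRIP column 1 (the last 2 settings, like the next, chosen after seeing the data). No stage block left 7 genes lower and 0 higher (62 and 5 at an unadjusted p under 0.05), and no trend left 13 lower and 2 higher. With any 1 stage pair left out limma called 0 lower and 0 higher, against 62 to 85 lower and 5 to 9 higher at an unadjusted p under 0.05 (9.12% to 11.4% and 6.8% to 7.96% of all features); fewer samples enter those fits. The fit over 24 columns called 69 lower and 8 higher, and with column number within stage as a replicate block 76 lower and 10 higher; the labels do not say that a number pairs columns, and columns of 1 sample may be technical. The share ratio of 0.831 became 0.436 without rrn-2.1. For named genes, 378 values kept their side of the threshold, 26 passed it and 140 no longer did. The planned count tests on recovered reads (edgeR, DESeq2) were not run. Ratios resting on under 50 dsRIP reads, such as ZK897.4 (9), F28C6.11 (9) and C53B4.9 (12), are limited by depth.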
